A study of Mus musculus with 8 samples.

Results

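The circadian clock output genes described here are 10 genes, Dbp, Tef, Hlf, Nr1d1, Nr1d2, Per1, Per2, Per3, Bhlhe41 and Ciart, that were chosen by name as repressors and outputs of the clock, among 35596 genes measured. The list was made with earlier results of these data known, so counts over it are descriptions. Each gene was found once by its Ensembl gene ID. They were measured by RNA sequencing of polyadenylated RNA from hand-picked pancreatic islets. The mice were males of the inbred strain C57BL/6J. Weight-cycled mice (4 libraries) ate a 60% fat diet for 9 weeks, a 10% fat diet for 9 weeks and the 60% fat diet again for 9 weeks. Obese mice (4 libraries) ate the 10% fat diet for 9 weeks and then the 60% fat diet for 18 weeks. Both groups thus ended on the 60% fat diet, and the groups differ both in the order of diets and in the length of the last period on it, which cannot be told apart here. The sources used here give neither the age of the mice nor the time of day at which islets were taken. Nor do the labels say how many animals stand behind a library, so the p-values below describe variation among libraries, which may be technical.

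The mammalian clock is a loop of transcription factors. CLOCK and BMAL1 (the product of Arntl) bind E-box sequences and switch on the Per and Cry genes, whose proteins then repress them. The same activators switch on Nr1d1 and Nr1d2, which encode REV-ERB receptors that repress Arntl through ROR elements, and the factors DBP, TEF and HLF, which activate further genes through D-box sequences. The transcripts of many of these targets therefore peak and fall over the day, roughly in opposite phase to Arntl. In islets the clock is known for its part in the daily rhythm of insulin secretion.

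Promoter sequences, 250 bases before to 50 bases after an annotated start site, were taken from RefSeq (build GRCm38, which mm10 names) and matched for 9 of the 10 genes, Per2 being the other. They were searched on both strands for the E-box CACGTG, the E-box variant CACGTT, the D-box in the forms TTATGTAA and TTACGTAA, and the core of the ROR element, TAGGTCA. The E-box reads the same on both strands, and no motif searched holds another. The windows below are shown because they hold the letters through which these genes are known to be tied to one another. Each runs 5′ to 3′ on the gene's strand, with matches in capitals.
Ciart, chr3:95882179-95882478, minus strand: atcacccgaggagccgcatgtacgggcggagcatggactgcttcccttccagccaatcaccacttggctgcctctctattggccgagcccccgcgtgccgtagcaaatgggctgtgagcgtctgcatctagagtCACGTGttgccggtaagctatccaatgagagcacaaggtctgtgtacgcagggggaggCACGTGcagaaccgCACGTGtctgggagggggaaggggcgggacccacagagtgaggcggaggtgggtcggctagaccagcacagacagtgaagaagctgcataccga
Bhlhe41, chr6:145865371-145865670, minus strand: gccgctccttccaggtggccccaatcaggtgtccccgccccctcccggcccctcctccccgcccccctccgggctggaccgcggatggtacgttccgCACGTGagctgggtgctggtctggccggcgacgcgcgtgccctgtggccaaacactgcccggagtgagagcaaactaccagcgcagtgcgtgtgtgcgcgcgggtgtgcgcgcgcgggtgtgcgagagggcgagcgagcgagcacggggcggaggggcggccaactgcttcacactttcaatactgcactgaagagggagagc
Per1, chr11:69098699-69098998, plus strand: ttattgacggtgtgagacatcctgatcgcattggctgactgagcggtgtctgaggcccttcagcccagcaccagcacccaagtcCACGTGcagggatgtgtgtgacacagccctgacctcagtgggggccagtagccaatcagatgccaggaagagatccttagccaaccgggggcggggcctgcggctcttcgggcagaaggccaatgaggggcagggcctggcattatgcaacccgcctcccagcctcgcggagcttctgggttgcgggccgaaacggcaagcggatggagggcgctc
Tef, chr15:81802423-81802722, plus strand: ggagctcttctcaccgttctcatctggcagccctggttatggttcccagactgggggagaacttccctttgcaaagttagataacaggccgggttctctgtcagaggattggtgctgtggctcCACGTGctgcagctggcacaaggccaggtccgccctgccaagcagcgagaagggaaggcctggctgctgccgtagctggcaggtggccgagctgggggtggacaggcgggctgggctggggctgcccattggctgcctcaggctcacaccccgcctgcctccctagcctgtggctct
Per3, chr4:151044616-151044915, minus strand: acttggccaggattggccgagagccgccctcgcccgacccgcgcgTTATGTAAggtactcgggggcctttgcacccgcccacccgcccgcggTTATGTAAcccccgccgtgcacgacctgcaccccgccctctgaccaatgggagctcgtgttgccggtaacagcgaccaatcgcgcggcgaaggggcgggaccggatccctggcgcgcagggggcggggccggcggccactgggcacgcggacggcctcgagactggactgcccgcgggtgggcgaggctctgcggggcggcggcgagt
Arntl, chr7:113207261-113207560, plus strand: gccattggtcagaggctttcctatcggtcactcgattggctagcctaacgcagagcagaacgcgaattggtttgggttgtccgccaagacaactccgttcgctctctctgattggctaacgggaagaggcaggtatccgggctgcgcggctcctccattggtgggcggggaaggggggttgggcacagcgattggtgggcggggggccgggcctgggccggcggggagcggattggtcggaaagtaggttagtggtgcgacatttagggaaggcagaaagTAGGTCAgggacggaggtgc

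The E-box was found in windows of 4 of the 9 genes, Tef, Per1, Bhlhe41 and Ciart. Of all 32851 promoter windows, which belong to 27025 genes, 7.15% held it. That share is per window, and a gene can have several windows, so the share per gene may differ. Ciart, a repressor of CLOCK and BMAL1, held 3 E-boxes, which begin at positions -116, -58 and -44 from its start site, and 0.0883% of all windows held 3 or more. Tef held 1 E-box in each of its 2 windows, which belong to separate start sites. Nr1d1 held the variant CACGTT, found in 4.68% of all windows. Per3 held 2 D-boxes, TTATGTAA, where 1.06% of all windows held 1 or more and 0.0244% held 2 or more. The ROR element core was in 0 of the 11 windows of these 9 genes, against 2.61% of all windows, and was found in Arntl and in Nfil3, which encodes a repressor that binds D-boxes. The other motifs were also found among 20 further clock genes with a window, the E-box in Cry1 and Sgk1, the variant CACGTT in Cry1, Cry2, Rorb and Ncor1, and the D-box in Timeless. Dbp, Hlf and Nr1d2 held none of these letters in their windows, which says nothing of sites elsewhere.

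**Figure D1:**
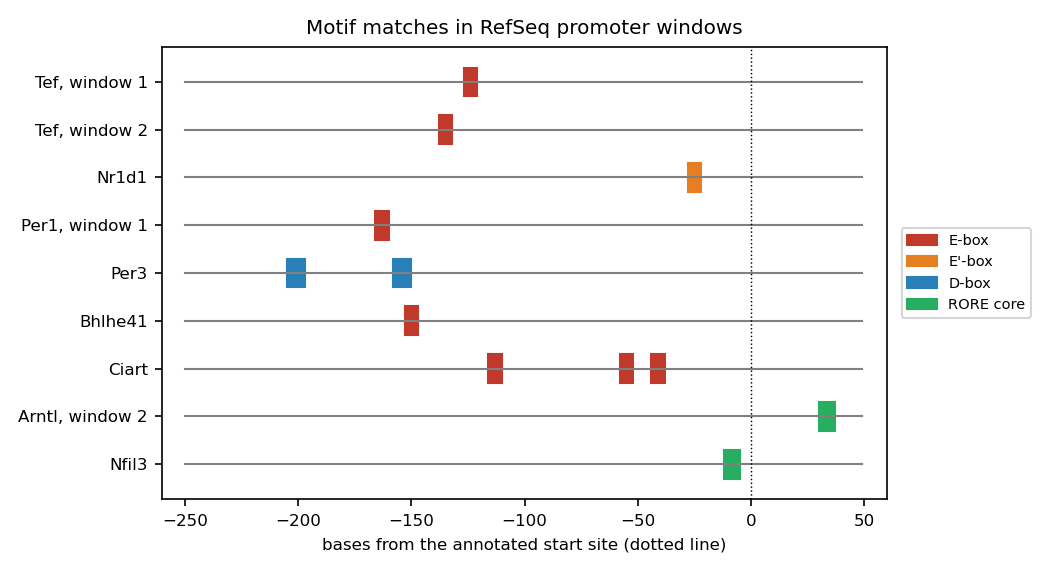
Motif matches (coloured boxes) along RefSeq promoter windows of clock genes, in bases from the annotated start site. Ciart has 3 E-boxes and Per3 2 D-boxes, and the ROR element core stands in Arntl and Nfil3.

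All 10 genes had a lower mean TPM in weight-cycled than in obese islets, with means from 44.5% to 56.1% of the obese mean. TPM is an abundance per transcript length, relative to the library total, so that levels of different genes can be set side by side. It keeps no record of sequencing depth, so no counting interval can be given. In bulk islet RNA, fewer cells of a type and less RNA per cell cannot be told apart. The 4 libraries of each group did not overlap for 9 of the 10 genes, all lower in weight-cycled islets, Ciart being the exception. Of the genes tested, which were those averaging at least 1 TPM, 21.1% likewise lay lower without overlap. Not all of the 10 genes reached that level, and without such a filter the share was 12.2% of 19482 genes.

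**Figure D2:**
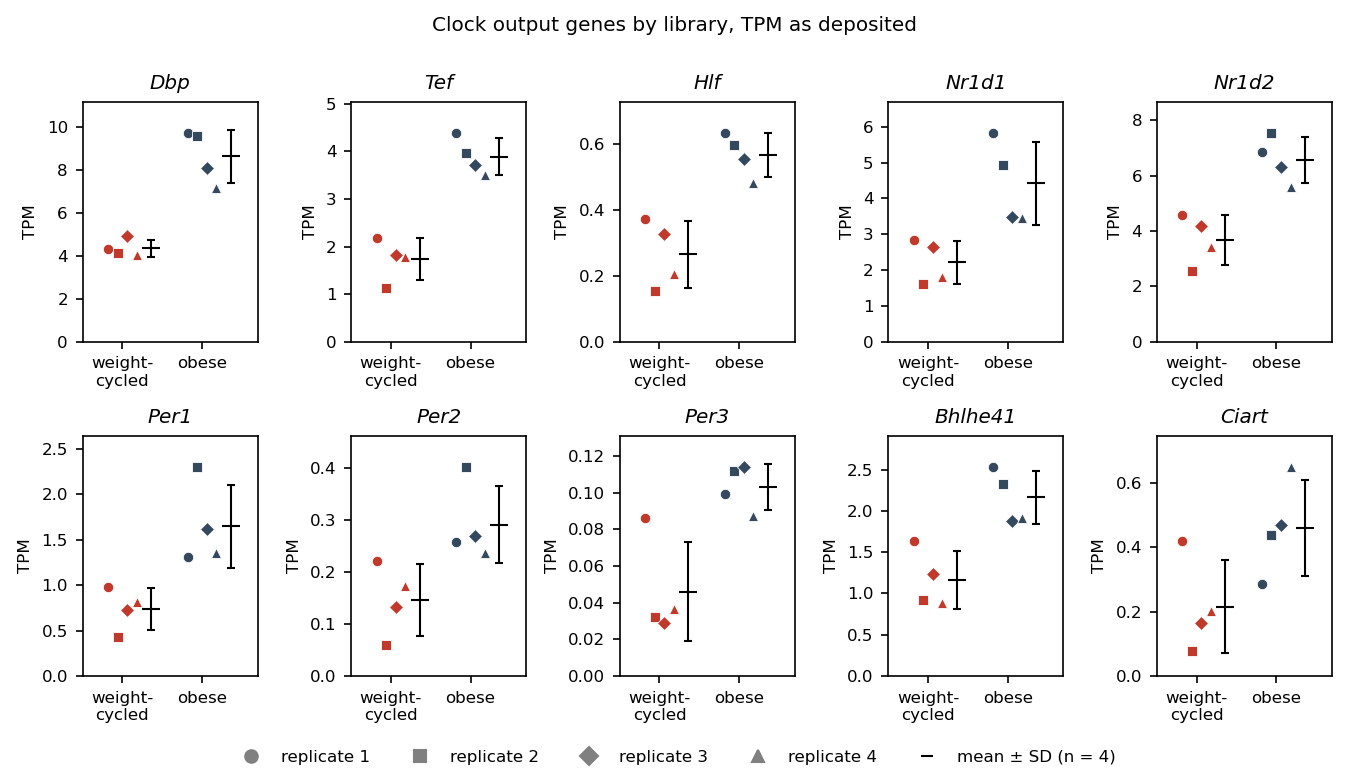
TPM of the 10 clock output genes in each library, weight-cycled (red) left of obese (blue), with the mean ± SD of 4 libraries in black. Weight-cycled libraries lie below every obese library except for Ciart, where weight-cycled replicate 1 lies at 0.419 TPM.

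Dbp was the most abundant of the 10 genes in both groups, at 4.36 ± 0.386 TPM in weight-cycled and 8.63 ± 1.24 TPM in obese islets (SD, n = 4 each). Nr1d2 followed at 3.69 and 6.58 TPM, Nr1d1 at 2.23 and 4.42 TPM, and Tef at 1.73 and 3.89 TPM in weight-cycled and obese islets. Bhlhe41, Per1, Hlf, Ciart, Per2 and Per3 came next in that order in both groups, down to 0.046 TPM in weight-cycled and 0.103 TPM in obese islets for Per3. The order was not the same in every library. In weight-cycled islets Dbp exceeded Nr1d2 in 3 of 4 libraries and Hlf exceeded Ciart in 3 of 4. In obese islets Nr1d1 exceeded Tef in 2 of 4 and Hlf exceeded Ciart in 3 of 4. Each of the other neighbours in the order kept its place in all 4 libraries of both groups, although most ranges over libraries overlapped.

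Of the 10 genes, 6 averaged at least 1 TPM over the 8 libraries and were tested within a limma fit across 8127 genes. All 6 were lower in weight-cycled islets at an adjusted p under 0.05, against 23.9% of all tested genes called lower and 25.2% called in either direction. Their median log2 fold change was -0.73, and that of all tested genes was -0.26. Fold changes here are on the log2(TPM + 1) scale, which understates changes of low genes. The other 4, Hlf, Per2, Per3 and Ciart, fell under the filter. Per1 passed it with a mean of 1.19 TPM over all libraries, while its weight-cycled mean was below 1.

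Dbp, Tef and Hlf encode closely related leucine zipper factors that activate genes through D-boxes. Dbp (ENSMUSG00000059824.12, chr7:45705088-45710203, plus strand) had 4.34, 4.12, 4.91 and 4.06 TPM in weight-cycled libraries 1 to 4, against 9.72, 9.59, 8.08 and 7.14 TPM in obese libraries 1 to 4. The weight-cycled values lay close together and all below the lowest obese library. The log2 fold change was -0.84 (SE 0.115, limma adjusted p = 0.0144), and 0.541% of tested genes had a lower one. Its p ranked 5 among 8127.

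Tef (ENSMUSG00000022389.15, chr15:81802421-81826863, plus strand) had 2.19, 1.13, 1.83 and 1.78 TPM in weight-cycled libraries, against 4.39, 3.97, 3.71 and 3.5 TPM in obese libraries. The groups lay apart, with weight-cycled replicate 2 the lowest of all. Its log2 fold change was -0.85 (SE 0.133, limma adjusted p = 0.0165), with a p that ranked 18. Hlf (chr11:90336536-90390895, minus strand) was scarce, at 0.373, 0.153, 0.327 and 0.207 TPM in weight-cycled libraries, against 0.633, 0.597, 0.553 and 0.481 TPM in obese libraries. Here too the groups did not overlap, and the log2(TPM + 1) difference of -0.31 had an exact two-sided permutation p = 0.0286, the smallest that 4 against 4 libraries allow.

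Nr1d1 and Nr1d2 encode REV-ERBα and REV-ERBβ, nuclear receptors that repress Arntl and other genes with ROR elements. Nr1d1 (ENSMUSG00000020889.11, chr11:98767932-98775333, minus strand) had 2.83, 1.62, 2.64 and 1.8 TPM in weight-cycled libraries, against 5.83, 4.93, 3.47 and 3.45 TPM in obese libraries. The obese libraries were widely spread, and the groups did not overlap. Its log2 fold change was -0.74 (SE 0.172, limma adjusted p = 0.0322). The 3′ end of Nr1d1 overlaps that of Thra, a thyroid hormone receptor gene on the other strand, by 1075 bases. Thra averaged 3.31 ± 0.886 TPM in weight-cycled and 6.38 ± 0.39 TPM in obese islets (SD, n = 4), a log2 fold change of -0.79 (limma adjusted p = 0.0243). Whether the library kit and the quantification kept strand is not stated in the sources used here, so reads of the shared stretch may be credited to either gene. Dbp likewise shares 737 bases with Sphk2 on the opposite strand, which stood at a log2 fold change of -0.16 (limma adjusted p = 0.28). All 41014 bases of Per3 lie within the span of Camta1 on the same strand, a gene at -0.12 (limma adjusted p = 0.466).

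Nr1d2 (ENSMUSG00000021775.11, chr14:18204054-18239127, minus strand) had 4.59, 2.55, 4.19 and 3.42 TPM in weight-cycled libraries, against 6.86, 7.54, 6.31 and 5.59 TPM in obese libraries. No library of one group entered the range of the other. The log2 fold change was -0.71 (SE 0.146, limma adjusted p = 0.0303), and of the 10 genes Nr1d2 kept the largest share of its obese mean, 56.1%.

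The Per genes encode the PERIOD proteins, which with the cryptochromes repress CLOCK and BMAL1. Per1 (ENSMUSG00000020893.17, chr11:69095217-69109960, plus strand) had 0.979, 0.433, 0.725 and 0.813 TPM in weight-cycled libraries, against 1.31, 2.3, 1.62 and 1.36 TPM in obese libraries. Obese replicate 2 was the highest and weight-cycled replicate 2 the lowest, and the groups did not overlap. The log2 fold change was -0.60 (SE 0.143, limma adjusted p = 0.0322). Per2 (chr1:91415982-91459324, minus strand) had 0.22, 0.0587, 0.132 and 0.173 TPM in weight-cycled libraries, against 0.257, 0.401, 0.268 and 0.237 TPM in obese libraries. The gap between the groups was narrow, with a log2(TPM + 1) difference of -0.17 (exact two-sided permutation p = 0.0286).

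Per3 (chr4:151003652-151044665, minus strand), whose promoter window holds the D-boxes above, was the scarcest, at 0.0864, 0.0323, 0.0288 and 0.0364 TPM in weight-cycled libraries, against 0.0992, 0.112, 0.114 and 0.0872 TPM in obese libraries. Weight-cycled replicate 1 lay just under obese replicate 4 and far above the other 3 of its group. The difference of -0.08 on the log2(TPM + 1) scale had an exact two-sided permutation p = 0.0286, which became 0.0571 after the median-of-ratios scaling. Such low values rest on few reads at an unknown depth.

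Bhlhe41 and Ciart encode further repressors of CLOCK and BMAL1. Bhlhe41 (ENSMUSG00000030256.11, chr6:145858243-145865558, minus strand), also known as Dec2, had 1.64, 0.918, 1.23 and 0.881 TPM in weight-cycled libraries, against 2.53, 2.33, 1.88 and 1.91 TPM in obese libraries. The groups did not overlap, and the log2 fold change was -0.55 (SE 0.133, limma adjusted p = 0.0324). Ciart (chr3:95878503-95882251, minus strand) had 0.419, 0.0771, 0.164 and 0.202 TPM in weight-cycled libraries, against 0.285, 0.437, 0.468 and 0.648 TPM in obese libraries. Its groups overlapped, because weight-cycled replicate 1 exceeded obese replicate 1, and the log2(TPM + 1) difference of -0.27 did not pass (exact two-sided permutation p = 0.0571).

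**Figure D3:**
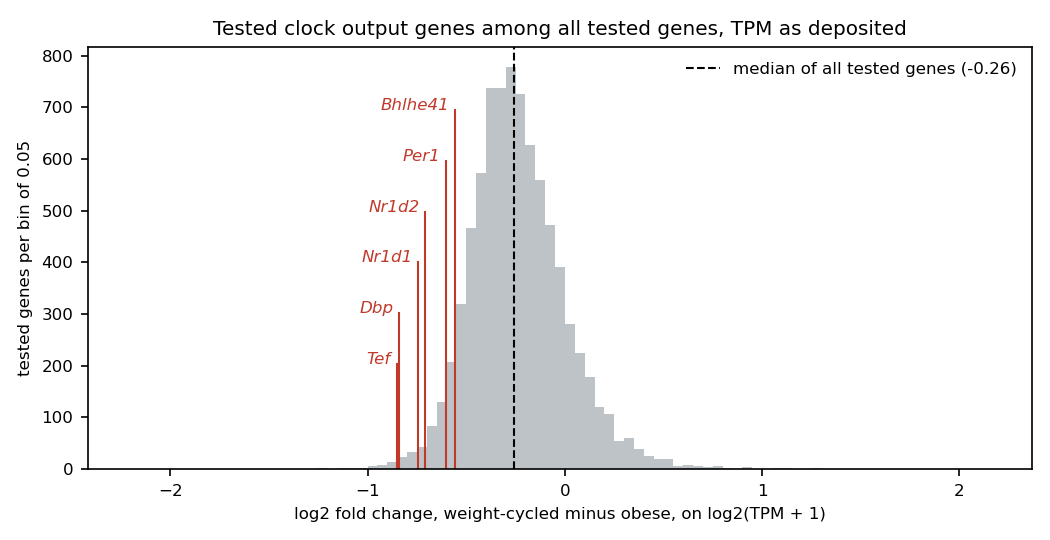
Log2 fold changes of all 8127 tested genes (grey bars, genes per bin), with the 6 tested clock output genes as red lines whose heights carry no value. The 6 lie between -0.85 and -0.55, below the all-gene median of -0.26 (dashed line).

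The same libraries were high or low in their group for most of the 10 genes. Weight-cycled replicate 1 was the highest of its group for 9 of them and replicate 2 the lowest for 7, while obese replicate 4 was the lowest of its group for 7. The same count over all tested genes was not made. The first principal component of all tested genes held 66.8% of the variance. On it weight-cycled replicate 1 scored -7.98, within the obese range of -23.3 to -5.03, and the other weight-cycled libraries scored 13.8 to 30.6. Since the median tested gene was lower in weight-cycled libraries on the TPM scale, the values were also divided by median-of-ratios factors, which ranged from 0.784 to 1.05 in weight-cycled and from 1.02 to 1.22 in obese libraries. On that scale the median over all tested genes becomes -0.01.

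After this scaling, 3 of the 6 tested genes were lower at an adjusted p under 0.05, against 0.566% of all tested genes called lower and 1.81% called in either direction. Tef stood at -0.62 (SE 0.0889, limma adjusted p = 0.0217), Dbp at -0.55 (SE 0.088, limma adjusted p = 0.0264) and Nr1d2 at -0.44 (SE 0.0948, limma adjusted p = 0.0497). Their p-values ranked 10, 24 and 146 among 8127. Nr1d1 at -0.50, Per1 at -0.44 and Bhlhe41 at -0.36 did not pass (limma adjusted p = 0.0611, 0.0714 and 0.0616). Scaled values averaged 1.91 ± 0.319 in weight-cycled and 3.46 ± 0.106 in obese islets for Tef, and 4.9 ± 0.573 in weight-cycled and 7.64 ± 0.488 in obese islets for Dbp (SD, n = 4). The groups stayed apart for 8 of the 10 genes, now excepting Per3 and Ciart, and means were 53.9% to 69.8% of the obese mean. Of tested genes 6.93% lay lower without overlap, and of 19482 genes without the filter 4.47%. Weight-cycled replicate 1 was the highest of its group for 4 of the 10 genes on this scale, in place of 9. Weight-cycled replicate 2 was still the lowest for 7, and obese replicate 4 was the lowest for 3, in place of 7.

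Removing each library's trend with transcript length gave the same 3 genes, Dbp at -0.65 (limma adjusted p = 0.0164), Tef at -0.57 (limma adjusted p = 0.0164) and Nr1d2 at -0.41 (limma adjusted p = 0.0384), against 1.16% of tested genes called lower and 3.06% called in either direction. Nr1d1 stood at -0.44, Per1 at -0.23 and Bhlhe41 at -0.22 (limma adjusted p = 0.0557, 0.19 and 0.0826). Calls also depended on single libraries. Without weight-cycled replicate 1 all 6 genes passed on TPM as deposited, where 54.4% of all tested genes were called lower, and all 6 after scaling, where 17.9% were. Without obese replicate 1, 0 of 6 and 0 of all tested genes passed on either scale. All 6 had an unadjusted limma p under 0.05 on both scales. So did 2670 of all 8010 tested genes on TPM as deposited, and 1636 after scaling. On TPM as deposited, 1 or 2 of 6 passed without weight-cycled replicate 2, 3 or 4 or obese replicate 2 or 3, fits that called 0.0852% to 0.597% of all tested genes lower. Without obese replicate 4, 6 passed, against 20.6% called lower. Dbp passed in 7 of these 8 fits and Tef in 6, while Nr1d1, Nr1d2, Per1 and Bhlhe41 each passed in 2. After scaling, the number was 0 without weight-cycled replicate 4 or obese replicate 1, 2, 3 or 4, 1 when weight-cycled replicate 2 was left out and 2 when replicate 3 of that group was, against at most 0.28% of all tested genes called lower in these 7 fits.

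**Figure D4:**
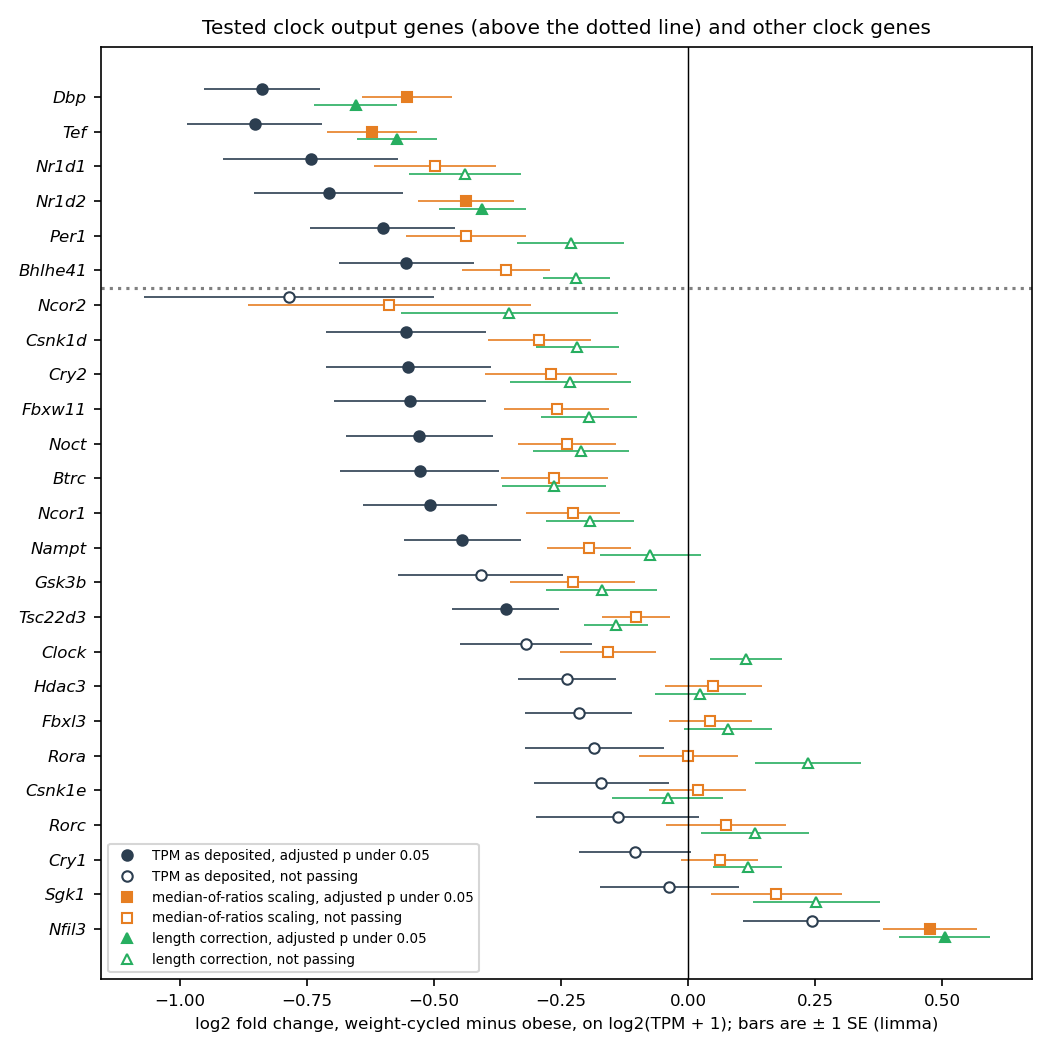
Log2 fold changes, weight-cycled minus obese, with ± 1 SE (limma) for tested clock output genes (top) and other clock genes, on TPM as deposited (circles), after median-of-ratios scaling (squares) and after length correction (triangles). Filled symbols passed an adjusted p of 0.05, and Dbp, Tef and Nr1d2 passed in all 3, whereas Nfil3 passed on the higher side in 2.

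The rest of the clock was read from 28 further genes, of which 19 were tested and 9 fell under the filter. On TPM as deposited, 8 were lower in weight-cycled islets, 0 were higher and 11 did not pass, with a median log2 fold change of -0.36. Of all tested genes, 23.9% were called lower and 1.21% higher, with a median of -0.26. After median-of-ratios scaling 0 of the 19 were lower and 1 was higher, against 0.566% and 1.24% of all tested genes. Length correction gave the same counts, against 1.16% and 1.91% of all tested genes. Of all 28 genes, 6 lay lower without overlap and 0 higher on TPM as deposited. Of 19482 genes without the filter, 2373 lay lower and 231 higher. After median-of-ratios scaling 1 of the 28 lay lower and 1 higher, against 871 and 864 of the 19482. Arntl, the partner of Clock and the gene that REV-ERB receptors repress, had 0.703, 0.373, 0.404 and 0.416 TPM in weight-cycled libraries, against 0.714, 0.422, 0.394 and 0.344 TPM in obese libraries. These ranges coincided almost entirely, and replicate 1 was the highest in both groups. After median-of-ratios scaling Arntl averaged 0.521 ± 0.101 in weight-cycled and 0.411 ± 0.117 in obese islets (SD, n = 4), and the groups overlapped. Clock stood at -0.32 (limma adjusted p = 0.0756), but at 0.11 after length correction. Npas2, a relative of Clock, and Arntl2, a relative of Arntl, averaged 0.132 and 0.056 TPM in weight-cycled and 0.189 and 0.0693 TPM in obese islets. Also under the filter, Bhlhe40 averaged 0.614 TPM in weight-cycled and 0.686 TPM in obese islets. In the same order of groups, Usp2 averaged 0.329 and 0.334 TPM, Wee1 0.453 and 0.612 TPM, and Fbxl21 0.537 and 0.658 TPM. Timeless averaged 0.275 and 0.242 TPM and Rorb 0.00127 and 0.00118 TPM, and all 6 overlapped between groups.

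Of the cryptochrome genes, whose proteins repress with the PERIOD proteins, Cry2 was lower at -0.55 (SE 0.162, limma adjusted p = 0.0394), at -0.27 after scaling (limma adjusted p = 0.184). Weight-cycled replicate 1 had 7.59 TPM of Cry2, inside the obese range of 7.29 to 8.59 TPM, while the other 3 weight-cycled libraries had 3.71 to 4.74 TPM. Cry1 stood at -0.11 (limma adjusted p = 0.441) and at 0.06 after scaling, and averaged 1.03 ± 0.231 TPM in weight-cycled and 1.17 ± 0.07 TPM in obese islets. Of 6 tested kinase and ubiquitin ligase genes that set the lifetime of clock proteins, Csnk1d, Btrc and Fbxw11 were lower, at -0.56, -0.53 and -0.55 (limma adjusted p = 0.0367, 0.0399 and 0.0357), and 3 did not pass. Of 3 corepressor genes, Ncor1, which encodes a partner of REV-ERB receptors, was lower at -0.51 (limma adjusted p = 0.0345). Of 4 tested genes of rhythmic outputs, Nampt, an enzyme of NAD synthesis, Noct, a phosphatase, and Tsc22d3, which glucocorticoids induce, were lower at -0.44, -0.53 and -0.36 (limma adjusted p = 0.0345, 0.0357 and 0.039). After median-of-ratios scaling 0 of these 8 genes passed, with changes of -0.29 to -0.10. These counts stand beside 23.9% of all tested genes called lower on TPM as deposited and 0.566% after scaling.

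Nfil3, which represses the D-box genes that DBP, TEF and HLF activate, had positive log2 fold changes on all 3 scales. It had 3.31, 2.51, 2.56 and 2.3 TPM in weight-cycled libraries, against 2.58, 2.4, 1.54 and 1.94 TPM in obese libraries. These ranges overlapped, and the log2 fold change of 0.24 did not pass (SE 0.135, limma adjusted p = 0.163). After median-of-ratios scaling the groups lay apart, and Nfil3 was higher at 0.48 (SE 0.0928, limma adjusted p = 0.0411). After length correction it was higher at 0.50 (limma adjusted p = 0.0254). With 1 library left out, the scaled value passed in 1 of 8 fits, that without weight-cycled replicate 1 (limma adjusted p = 0.00884), and stood at 0.40 to 0.51 in the other 7 (limma adjusted p = 0.0662 to 0.119). Without the filter on low genes the scaled value did not pass (limma adjusted p = 0.12).

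Ratios between genes of one library do not depend on how that library was scaled. They are given as a description with no test, and the ratios to Nfil3 were chosen after its values were seen. The log2 ratio of Dbp to Nfil3 was 0.39, 0.71, 0.94 and 0.82 in weight-cycled libraries, against 1.91, 2.0, 2.39 and 1.88 in obese libraries. For Tef it was -0.59, -1.16, -0.49 and -0.37 in weight-cycled libraries, against 0.76, 0.72, 1.27 and 0.85 in obese libraries. Tef was thus below Nfil3 in all 4 weight-cycled libraries and above it in all 4 obese libraries. The ratio of Hlf to Nfil3 averaged -3.41 ± 0.47 in weight-cycled and -1.88 ± 0.271 in obese islets (SD, n = 4), again without overlap. These ratios carry the difference in Nfil3 itself as well. Of all other tested genes, 65.2% had a ratio to Nfil3 that was lower without overlap, with a median difference of -0.70, against -1.33 for Dbp, -1.56 for Tef and -1.53 for Hlf.

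Set against Arntl, 7 of the genes were compared in the same way. The log2 ratio of Dbp to Arntl averaged 3.25 ± 0.433 in weight-cycled and 4.25 ± 0.33 in obese islets, and that of Nr1d1 to Arntl 2.24 ± 0.319 in weight-cycled and 3.26 ± 0.227 in obese islets (SD, n = 4 each). The groups did not overlap for Dbp, Tef, Nr1d1 and Per3, against 9.73% of all tested genes whose ratio to Arntl was lower without overlap. They overlapped for Nr1d2, Per1 and Per2, in which obese replicate 1, the obese library with the most Arntl, lay within the weight-cycled range. The mean differences ranged from -1.34 for Per3 to -0.89 for Nr1d2, and the median over all tested genes was -0.38. With 1 TPM added to both terms, the groups overlapped for Per3 and Per2 and no longer for Nr1d2 and Per1. Arntl was measured at under 1 TPM, so these ratios carry the error of a scarce transcript.

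**Figure D5:**
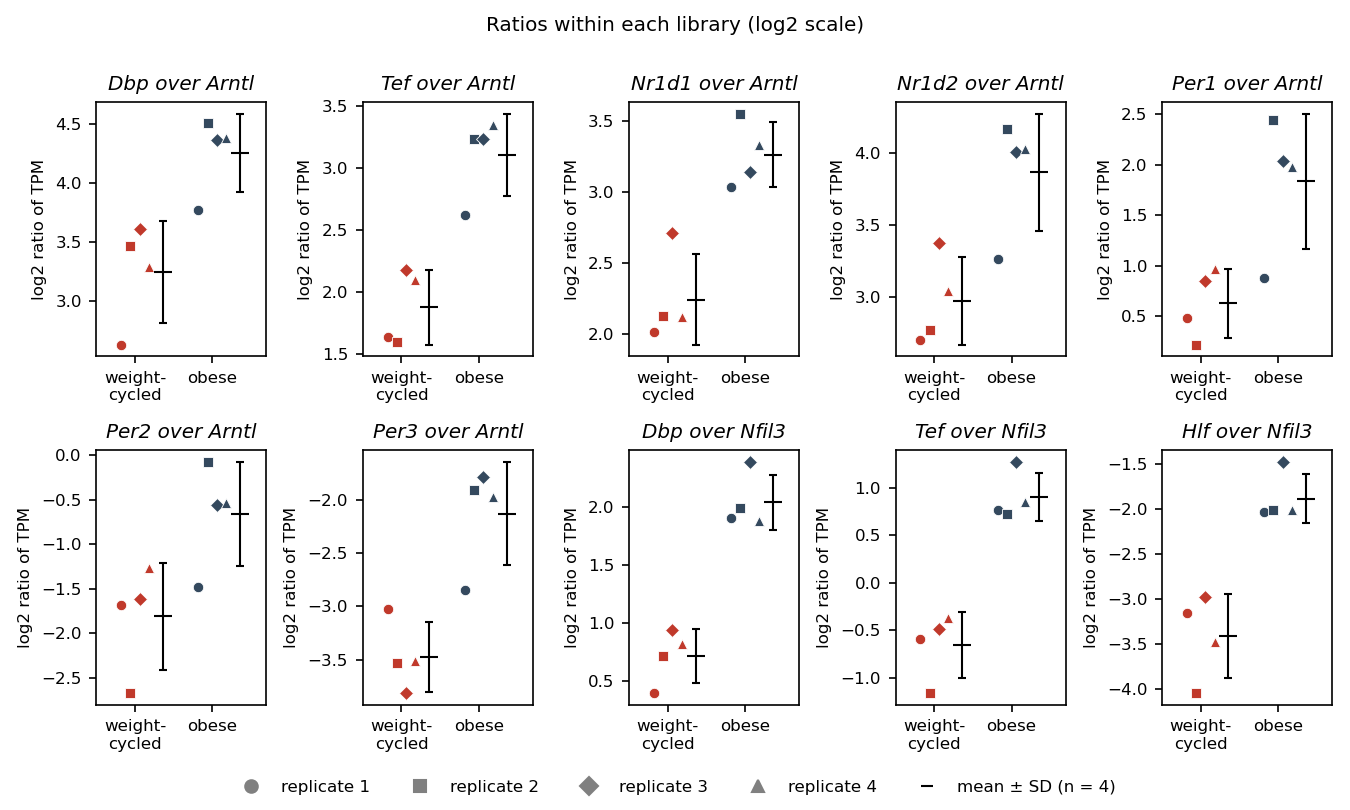
Log2 ratios of TPM between pairs of genes in each library, weight-cycled (red) left of obese (blue), with the mean ± SD of 4 libraries in black. Ratios to Nfil3 do not overlap between groups, as for 65.2% of all tested genes, and among ratios to Arntl those of Nr1d2, Per1 and Per2 do.

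The tested genes outside the clock lists whose pattern over the 8 libraries was most like that of Dbp were Ppp1r1a, Ddx17, Mapk15, Scgn and Tmem206. Likeness was the root mean square difference of log2(TPM + 1) deviations from each gene's mean, which was 0.0946 to 0.14 for these 5 genes and had a median of 0.334 over all tested genes. Ppp1r1a, which encodes an inhibitor of protein phosphatase 1, averaged 53.7 ± 5.82 TPM in weight-cycled and 91 ± 7.64 TPM in obese islets (SD, n = 4). Scgn, the gene of the calcium-binding protein secretagogin, averaged 63.1 ± 6.56 TPM in weight-cycled and 98.6 ± 14 TPM in obese islets. By the same measure Tef ranked 13 among 8126 genes, Nr1d1 29, Nr1d2 31, Bhlhe41 104 and Per1 337. Of the other clock genes, the nearest were Noct at 86, Btrc at 469 and Fbxw11 at 494. The measure was taken on TPM as deposited over both groups, so it includes the difference between the groups.

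The libraries had the markers of islets. Ins1 and Ins2 took 75.4% to 78.8% of TPM in weight-cycled and 76.9% to 78.4% in obese libraries. Summed endothelial markers reached 19.7 to 42.7 TPM in weight-cycled and 33.4 to 58.6 TPM in obese libraries, with 1 of 5 genes called lower. Summed macrophage markers reached 29.6 to 39.8 TPM in weight-cycled and 37.3 to 43.1 TPM in obese libraries, with 1 of 2 tested genes of 5 called lower. Summed acinar markers reached 2070 to 5040 TPM in weight-cycled and 1690 to 3210 TPM in obese libraries, and 0 of 6 were called. Duct markers summed to 16.6 to 32.5 TPM in weight-cycled and 14.1 to 19.3 TPM in obese libraries, nearly all of it Spp1, with Krt19, Sox9 and Cftr below 1 TPM in every library. Stromal markers summed to 1.23 to 2.71 TPM in weight-cycled and 1.89 to 2.73 TPM in obese libraries. Adipocyte markers summed to 5.3 to 11.3 TPM in weight-cycled and 6.63 to 10.6 TPM in obese libraries, with Adipoq listed at 0 in all 8. Marker calls were made on TPM as deposited only, where 23.9% of all tested genes were called lower. The part of these markers in the lower clock output genes was not tested.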

How the data were processed

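The authors deposited TPM per gene for 8 islet libraries. The submitters' processing notes name Salmon 1.5.2 and build mm10. The annotation, the summing of transcripts to genes and the depth per library are not stated in the sources used here. Poly-A beads and the NEBNext Ultra kit were used, per the labels' protocols. Each column sums to between 999930 and 999949, so that a gene's TPM falls where others rise. Of the gene IDs, 99.8% had a symbol. GENCODE M21 (GRCm38, as mm10) gave coordinates and transcript lengths.

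Genes averaging at least 1 TPM were tested two-sided with trended eBayes of limma 3.58.1 (R 4.3.3) on log2(TPM + 1), without covariates. P-values were adjusted by Benjamini-Hochberg across the tested genes, and 0.05 was the threshold. For the 4 members under the filter, means of log2(TPM + 1) were compared by exact permutation over 70 assignments. These p-values were not adjusted, and any gene whose groups do not overlap gets the smallest one, 0.0286. Count models were left out because TPM are no counts. Median-of-ratios factors used genes above 0 in every library with a mean TPM of at least 1. For length correction, each library's deviations from gene means were fitted against log transcript length (loess, span 0.5) and the fit subtracted. The fits were tested on simulated TPM with known changes and noise drawn independently for each gene and library. Apart from scaling factors and a length trend, variation shared among genes was not simulated, so its effect on calls is not covered.

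Named genes were all members, the other listed clock genes and the 5 genes nearest to Dbp outside those lists, without predicted gene models. Thra, Sphk2 and Camta1 were named because their annotated spans overlap members. The members and lists were chosen with earlier results of these data known, so counts over them are descriptions. Alternatives were pseudocounts of 0.1 and 5, no filter, a filter at a mean TPM of 5, both corrections above, the replicate number as a block, untrended variance and omission of single libraries. Further ones were added with the data in view, namely scaling with each library other than weight-cycled replicate 1 left out, scaling without the filter, length correction without weight-cycled replicate 1, and the ratios to Nfil3.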

Additional observations from a re-analysis of the deposited data

Results flagged for a closer look

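Dixon's ratio was computed for 80 sets of 4 values (a gene or ratio in one group), and 5 exceeded its 95% limit, where chance gives about 4.0. In weight-cycled replicate 1, Per3 stood at 0.0864 TPM, while the other 3 weight-cycled libraries had 0.0288 to 0.0364 TPM. Arntl stood at 0.703 TPM in the same library and at 0.373 to 0.416 TPM in those 3. The log2 ratio of Tef to Arntl was 2.62 in obese replicate 1, against 3.24 to 3.35 in the other obese libraries. The log2 ratio of Nr1d1 to Arntl was 2.71 in weight-cycled replicate 3 and 2.01 to 2.12 in weight-cycled replicates 1, 2 and 4. The log2 ratio of Hlf to Nfil3 was -1.47 in obese replicate 3, against -2.03 to -2.01 in the other obese libraries.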

How the results depend on the processing

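Each of the 6 tested clock output genes was lower in weight-cycled islets under every alternative run, from -1.16 to -0.40 for Tef, -0.96 to -0.49 for Dbp, -0.96 to -0.38 for Nr1d1, -0.84 to -0.35 for Nr1d2, -1.07 to -0.19 for Per1 and -0.87 to -0.22 for Bhlhe41. Without the filter, limma gave 0 calls among 19482 genes, of which 5686 had an unadjusted p under 0.05. It gave 0 among the 10 members and 0 among the other clock genes, in place of 6 and 8, and all 10 members had an unadjusted p under 0.05. With the filter 2044 genes were called. With a filter at a mean TPM of 5, limma called 1080 of 3480 genes, both of the 2 members tested and 4 of 5 other clock genes. In that fit 28.8% of all tested genes were called lower. Median-of-ratios scaling gave 147, 3 and 1, and without the filter 1, 0 and 0. Length correction gave 249, 3 and 1, and without weight-cycled replicate 1 it gave 2125, 5 and 3. The latter fit called 12.8% of 8064 tested genes lower and 13.6% higher. Leaving out each library gave 0 to 4660 genes, 0 to 6 members and 0 to 12 other clock genes, and after scaling 0 to 3053 (81 without weight-cycled replicate 3, 13 without replicate 2 of either group), 0 to 6 and 0 to 7. Of the 4 members under the filter, 3 had an unadjusted exact permutation p under 0.05, 2 after scaling and 1 to 3 when each library was left out. Clock turned to 0.11 after length correction and 0.15 also without weight-cycled replicate 1. Cry1 turned to 0.0623 after scaling, with the replicate block or without the filter too, to 0.12 after length correction and to 0.11 also without weight-cycled replicate 1. After scaling it was 0.0448, 0.0965, 0.0305 and 0.0861 without weight-cycled replicates 1 to 4, and 0.0381, 0.0671, 0.0674 and 0.0721 without obese replicates 1 to 4. With 1 added to both terms, mean ratio differences to Arntl shrank to -0.86 for Tef, -0.61 for Per1, -0.18 for Per2 and -0.084 for Per3, and to Nfil3 to -1.08 for Dbp, -1.10 for Tef and -0.55 for Hlf. Deviations of same-numbered libraries from their group means correlated across genes at -0.276 to 0.231, and those of differently numbered libraries at -0.34 to 0.309. The labels state no pairing, and so few correlations cannot show whether there was one. The replicate block called 33.9% of all tested genes lower, and 1.13% with scaling. It gave 2903 genes, 6 members and 10 other clock genes, and with scaling 449, 3 and 1. Those 3 members were Dbp, Tef and Nr1d1 (limma adjusted p = 0.0478), while Nr1d2 did not pass (limma adjusted p = 0.0506). Where calls changed, the cause was not tested.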
